A study of Mus musculus with 6 samples.

Results

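Acetylation of histone H3 at lysine 27 (H3K27ac) was described here at 10 genes of the hypoxia response and of glycolysis: Hif1a, Slc2a1, Hk2, Pfkl, Pfkfb3, Aldoa, Eno1, Pkm, Ldha and Pdk1. They were taken as a named list and not by a threshold on measured values, though with earlier results of these data known, out of 22028 protein-coding genes in the GENCODE annotation of the mouse assembly mm10. Their H3K27ac peaks were those lying on the gene or within 3 kb of either end. Merging the peaks of the 4 H3K27ac libraries wherever they shared at least 1 bp gave 182956 regions in all, of which 99 lay at these genes.

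The cells were B16 F10, a mouse melanoma line of melanocyte type, seeded at 100 cells per cm2 in high glucose medium and collected on day 5 of the progressive pigmentation model. Cells of the same culture were sorted by side scatter, a light signal used as a surrogate for melanin, into low pigment (LP) and high pigment (HP) populations. Each population had 2 H3K27ac libraries, 1 per replicate number, and the controls of the authors' peak calling were IgG libraries from unsorted cells. The labels name no drug, oxygen level or mutation that differed between the groups, and they give no measurement of oxygen at the cells. Nothing in the labels says whether the replicates were separate cultures. The p-values therefore measure the spread between these libraries, which may be technical. Whatever else the gate selects cannot be told apart from pigment.

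The libraries held 11467942 (LP replicate 1), 15353176 (LP replicate 2), 11483830 (HP replicate 1) and 14254904 (HP replicate 2) fragments. Promoter peaks of all 7 melanocyte markers were found in all 4 libraries, none of the 3 keratinocyte or 3 immune markers had one in any library, and 2 of 3 fibroblast and 1 of 2 endothelial markers had one in some libraries. The height of a peak is given as its scaled pileup, its fragments at the summit per 1000000 fragments of the library. Where a library lacks a peak its list gives no height, and the signal there may lie anywhere under the authors' threshold. HP heights were higher across the genome: over the 12084 regions called in all 4 libraries, HP exceeded LP by a median log2 ratio of 0.92, and both HP values lay above both LP values in 74.8% of them. Every ratio of scaled pileups holds that shift, and values called centred were taken relative to the median of each library over these regions.

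HIF-1 is a transcription factor whose alpha subunit is degraded when oxygen is plentiful and is stabilised when oxygen is low. It then binds short hypoxia response elements at genes for glucose uptake, glycolysis and lactate production, and it restrains the use of pyruvate in mitochondria. Tumour cells, melanoma included, often use the same enzymes with oxygen present. H3K27ac marks active promoters and enhancers, and it was not measured together with transcription in these samples.

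The reference promoters are shown first, because the elements that HIF-1 reads are defined by their letters. Each line gives the 250 bases before the start site and the 50 bases from it on, on the strand of the gene, from the RefSeq table for GRCm38.p6, the assembly of mm10. Capitals mark the core letters ACGTG or GCGTG on either strand, so a match on the opposite strand reads CACGT or CACGC, and the palindrome CACGTG, which is also an E-box, holds ACGTG on both strands. The first 3 windows below held the most core matches of the 10 genes, with a CACGTG palindrome counted once on each strand. With palindromes counted once in all, Hif1a would not exceed Slc2a1, Hk2, Eno1 and Pdk1, with 2 matches each. The windows of Hk2 and Pdk1 are also printed, while those of Slc2a1 and Eno1, with as many matches, are not. Both HP values were above both LP values at 8 of the 10 genes, among them all those printed here. At Eno1, with 2 matches, and at Pfkl, with 1, the groups overlapped, and neither window is printed. The promoters of Aldoa and Pkm were separated too, though their reference windows held no match.
Ldha, chr7:46845554-46845853, plus strand: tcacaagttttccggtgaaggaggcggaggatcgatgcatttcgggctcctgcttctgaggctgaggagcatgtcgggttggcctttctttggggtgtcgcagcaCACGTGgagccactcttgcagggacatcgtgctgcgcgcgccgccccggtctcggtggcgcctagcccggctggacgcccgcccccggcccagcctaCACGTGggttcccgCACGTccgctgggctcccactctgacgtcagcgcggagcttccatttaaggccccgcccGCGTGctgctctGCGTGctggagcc
Pfkfb3, chr2:11502041-11502340, minus strand: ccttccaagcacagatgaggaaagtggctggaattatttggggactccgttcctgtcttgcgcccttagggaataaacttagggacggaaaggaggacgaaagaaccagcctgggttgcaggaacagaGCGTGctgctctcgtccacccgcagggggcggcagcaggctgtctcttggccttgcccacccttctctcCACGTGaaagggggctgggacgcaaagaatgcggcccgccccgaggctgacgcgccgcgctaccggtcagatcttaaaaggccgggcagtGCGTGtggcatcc
Hif1a, chr12:73907617-73907916, plus strand: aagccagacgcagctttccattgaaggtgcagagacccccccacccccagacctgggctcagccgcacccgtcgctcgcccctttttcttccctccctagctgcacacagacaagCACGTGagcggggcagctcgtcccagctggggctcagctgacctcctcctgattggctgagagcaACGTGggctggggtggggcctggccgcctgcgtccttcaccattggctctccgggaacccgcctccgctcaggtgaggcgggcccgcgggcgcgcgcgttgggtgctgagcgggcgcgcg
Hk2, chr6:82774405-82774704, minus strand: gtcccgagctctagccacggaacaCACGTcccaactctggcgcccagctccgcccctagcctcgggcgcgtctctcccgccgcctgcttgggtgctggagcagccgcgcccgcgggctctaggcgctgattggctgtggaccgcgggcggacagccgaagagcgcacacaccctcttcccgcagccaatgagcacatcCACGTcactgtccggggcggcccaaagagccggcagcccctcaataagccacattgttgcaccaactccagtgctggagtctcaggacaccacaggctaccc
Pdk1, chr2:71872974-71873273, plus strand: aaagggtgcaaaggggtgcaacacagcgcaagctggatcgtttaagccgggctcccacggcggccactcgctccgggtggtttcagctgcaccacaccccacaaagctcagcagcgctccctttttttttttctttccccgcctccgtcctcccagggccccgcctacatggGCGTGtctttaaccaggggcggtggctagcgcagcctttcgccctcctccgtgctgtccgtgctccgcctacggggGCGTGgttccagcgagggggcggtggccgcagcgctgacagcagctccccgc

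The Ldha window held 7 core matches, 5 of ACGTG and 2 of GCGTG, with 2 CACGTG palindromes among them that each count as 2 matches of ACGTG. The Pfkfb3 window held 4 and the Hif1a window 3, with 1 palindrome each. With 1 window per gene, ACGTG was found in 5 of 10 genes, GCGTG in 6, CACGTG in 3 and either core in 8. The windows nearest the reference start sites of Aldoa and Pkm had no match, while other RefSeq start sites of both genes had 1 or 2. Among all 32851 RefSeq promoter windows the shares were 19.6% for ACGTG, 32.4% for GCGTG, 7.15% for CACGTG and 43.8% for either core. Among the 10212 windows in a region called in all 4 libraries, which are richer in G and C, they were 28%, 56.6%, 11.1% and 68.1%. A match is a run of letters, not a bound site.

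All 10 genes carried a promoter region, meaning a region within 1 kb of a start site of one of their protein-coding transcripts, that was called in all 4 libraries. The share of all genes with such a region was not computed. In the wider window of the gene and 3 kb on each side, 12111 of 22028 protein-coding genes had a peak in every library. Both HP values were higher than both LP values at 8 of the 10 promoters, against 73.9% of all 8994 promoter regions called in all 4 libraries. The median log2 ratio of the 10 was 1.00, against 0.89 for all promoter regions, and after centring it was −0.01 against −0.12. Not 1 of the 10 passed the test (limma without a replicate term, Benjamini-Hochberg adjusted p of at most 0.05 over 12084 regions). The test called 4.01% of all regions higher in HP and 0% lower, and 248 of the 8994 promoter regions higher. At an unadjusted p under 0.05 by limma, 5 of the 10 were higher in HP (Hk2, Pfkfb3, Aldoa, Pkm and Pdk1), against 31.9% of all promoter regions and 36.2% of all regions. limma pooled the variance over regions, so the standard error of each log2 ratio was 0.54.

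**Figure D1:**
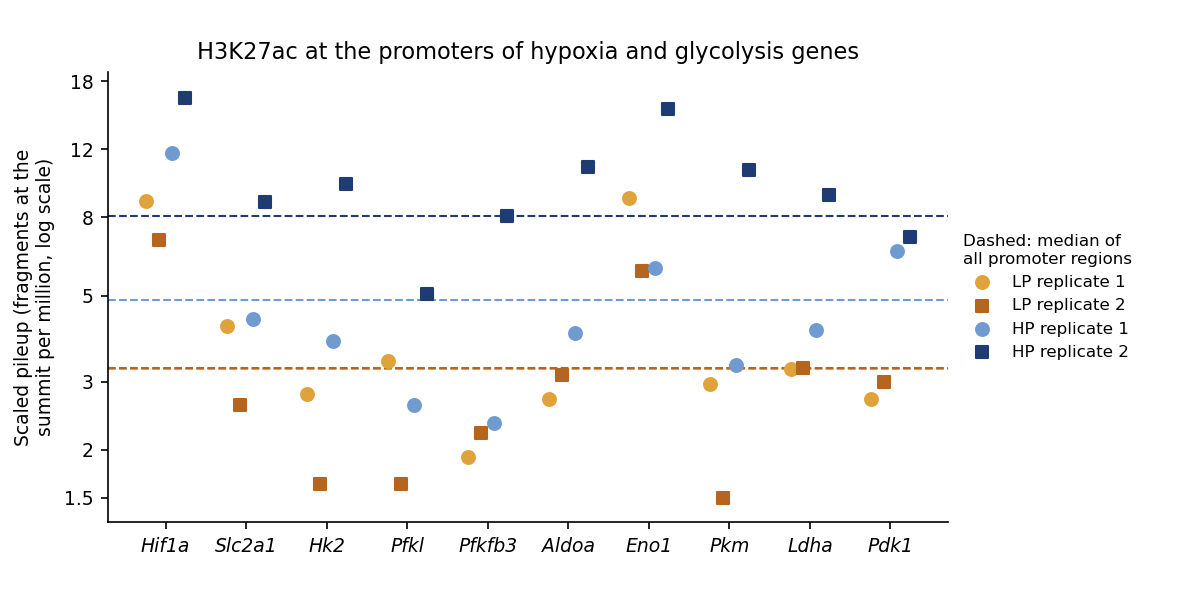
Scaled pileup at the summit of the promoter region (fragments per 1000000, log axis) of each gene in the 4 libraries, with circles for replicate 1 and squares for replicate 2 and with dashed lines at the median of all 8994 promoter regions in each library. HP replicate 2 is the highest point at every gene, and at Pfkl and Eno1 HP replicate 1 lies between the LP points.

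Hif1a encodes the alpha subunit of HIF-1. Its promoter region (chr12:73907283-73909388), over the first exon, had scaled pileups of 8.81 and 6.97 in LP replicates 1 and 2, against 11.7 and 16.3 in HP replicates 1 and 2. Both HP values were above both LP values. The log2 ratio was 0.82 (95% interval −0.25 to 1.88, adjusted p = 0.218 by limma), and −0.19 after centring. This was a tall promoter in every library, at percentiles 87.7 and 91.9 of all promoter regions in LP against 92.6 and 89.9 in HP. The 5 other regions at Hif1a were called in 1 or 2 libraries each.

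Slc2a1 encodes the glucose transporter Glut1. Its promoter region (chr4:119108334-119109781) had scaled pileups of 4.19 and 2.61 in LP against 4.35 and 8.77 in HP. The lower HP value exceeded the higher LP value only narrowly, and the log2 ratio was 0.90 (adjusted p = 0.185). The ratio of replicate 1 was 0.06 and that of replicate 2 was 1.75. A second region at Slc2a1, around exon 2 with its midpoint at 12874 bp from the start site (chr4:119120246-119122924), was also called in all 4 libraries. It was lower, with scaled pileups of 0.785 and 1.37 in LP against 1.65 and 2.67 in HP, and its log2 ratio of 1.02 was alike in both replicates, 1.08 and 0.96 (adjusted p = 0.148).

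Hk2 encodes hexokinase 2, which phosphorylates glucose after entry. Its promoter region (chr6:82772540-82775217) had scaled pileups of 2.79 and 1.63 in LP against 3.83 and 9.75 in HP, with a log2 ratio of 1.52 (95% interval 0.46 to 2.58, adjusted p = 0.065). Which of the 10 promoters had the highest ratio changed with the processing. It was Hk2 here and Aldoa with mean summit pileups (1.89, against 1.42 for Hk2). Pdk1 was highest without HP replicate 2 (1.20, against 0.85 for Hk2) or LP replicate 2 (1.33 against 1.13). Pkm was highest without HP replicate 1 (2.33, against 2.19 for Hk2) or LP replicate 1 (1.98 against 1.91). The size at Hk2 came mainly from replicate 2, with a log2 ratio of 2.58 against 0.46 in replicate 1. In rank among promoter regions Hk2 was at percentile 42.6 in LP against 35.6 in HP in replicate 1, and at 14.4 and 61.7 in replicate 2. The direction of the change in rank thus differed between the replicates.

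Pfkl encodes the liver type subunit of phosphofructokinase, which commits sugar to glycolysis. Its promoter region (chr10:78008548-78010097) had scaled pileups of 3.40 and 1.63 in LP against 2.61 and 5.05 in HP. The groups overlapped, and the log2 ratio was 0.63 (adjusted p = 0.317), with −0.38 in replicate 1 and 1.63 in replicate 2.

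Pfkfb3 encodes a bifunctional enzyme that makes fructose 2,6-bisphosphate, an activator of phosphofructokinase. It had promoter regions at both of its groups of start sites. The proximal one (chr2:11500456-11502229), which holds most of the sequence printed above, had scaled pileups of 1.92 and 2.21 in LP against 2.35 and 8.07 in HP, with a log2 ratio of 1.08 (adjusted p = 0.134). The distal one, its midpoint at −51663 bp from the reference start site (chr2:11553069-11554460), had 2.18 and 2.54 in LP against 2.35 and 3.58 in HP. There the groups overlapped and the log2 ratio was 0.30 (adjusted p = 0.607). The difference between both promoters was not tested.

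Aldoa encodes aldolase A, which splits fructose bisphosphate into trioses. Its promoter region (chr7:126797366-126801189) had scaled pileups of 2.70 and 3.13 in LP against 4.01 and 10.8 in HP, with a log2 ratio of 1.18 (adjusted p = 0.115). With the mean of the summit pileups in place of the highest, the log2 ratio was 1.89 (adjusted p = 0.114). It also lies within 1 kb of a start site of Fam57b, so its signal cannot be assigned to Aldoa alone. A taller region just beyond the other end of the gene (chr7:126791054-126792611) covers the promoter of the neighbour Ppp4c, and had 6.37 and 6.12 in LP against 10.6 and 12.6 in HP (log2 ratio 0.89, adjusted p = 0.190).

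Eno1 encodes enolase 1 and Pkm the muscle type pyruvate kinase, the enzymes of the last steps to pyruvate. The Eno1 promoter region (chr4:150235512-150238379) was among the tallest of the 10, with scaled pileups of 8.98 and 5.80 in LP against 5.92 and 15.2 in HP. HP replicate 1 lay between the LP values, so the groups overlapped. Its log2 ratio was 0.40 (adjusted p = 0.504), with −0.60 in replicate 1 and 1.39 in replicate 2.

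The Pkm promoter region (chr9:59655711-59660053) had scaled pileups of 2.96 and 1.5 in LP against 3.31 and 10.6 in HP. Its log2 ratio was 1.49 (95% interval 0.43 to 2.55, adjusted p = 0.0691), next to that of Hk2 and well within its error. The replicates were far apart here too, with log2 ratios of 0.16 and 2.82.

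Ldha encodes the A subunit of lactate dehydrogenase, which turns pyruvate into lactate. Its promoter region (chr7:46844870-46847438), which holds the 7 core matches, had scaled pileups of 3.23 and 3.26 in LP against 4.09 and 9.12 in HP. The log2 ratio was 0.91 (adjusted p = 0.181), close to the genome-wide shift, and −0.10 after centring.

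Pdk1 encodes a pyruvate dehydrogenase kinase, which restrains the use of pyruvate in mitochondria. Its promoter region (chr2:71872884-71874107) had scaled pileups of 2.70 and 3.0 in LP against 6.53 and 7.09 in HP. This was the promoter with the most similar ratios in both replicates, 1.27 and 1.24, and its log2 ratio was 1.26 (95% interval 0.19 to 2.32, adjusted p = 0.102). In rank it was at percentile 41.0 in LP against 66.1 in HP in replicate 1, and at 44.8 and 42.0 in replicate 2.

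**Figure D2:**
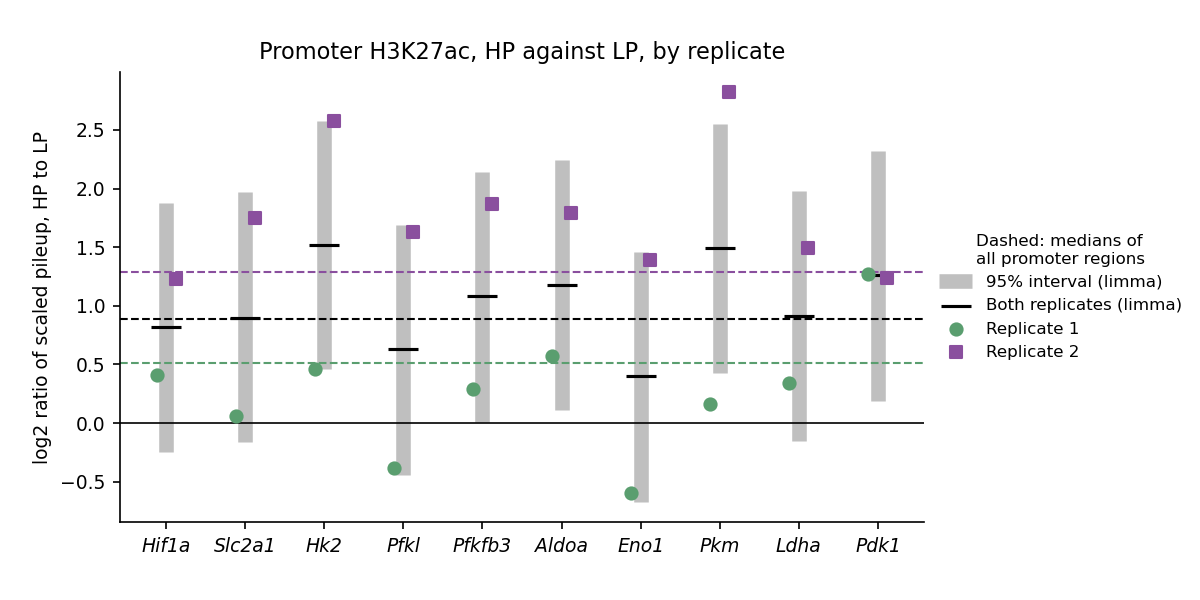
log2 ratio of HP to LP scaled pileup at each promoter, with circles and squares for replicates 1 and 2, a black bar and a grey 95% interval for the limma estimate, and dashed lines at the medians of all promoter regions (0.51 in replicate 1, 1.29 in replicate 2, 0.89 for the estimate). Replicate 2 lies above replicate 1 at 9 of 10 genes and Pdk1 has both at about the same value.

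The replicates contributed unequally. The median log2 ratio of the 10 promoters was 0.32 in replicate 1, below the 0.51 of all promoter regions, and 1.69 in replicate 2, above their 1.29. In replicate 1, 2 of the 10 (Aldoa and Pdk1) were above the median of all promoter regions, and in replicate 2, 8 were, Hif1a and Pdk1 being below. HP replicate 2 exceeded HP replicate 1 by a median log2 of 1.25 at the 10 promoters and of 0.67 at all promoter regions. LP replicate 2 differed from LP replicate 1 by −0.48 and −0.12. The difference between the 10 promoters and the others was not tested.

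**Figure D3:**
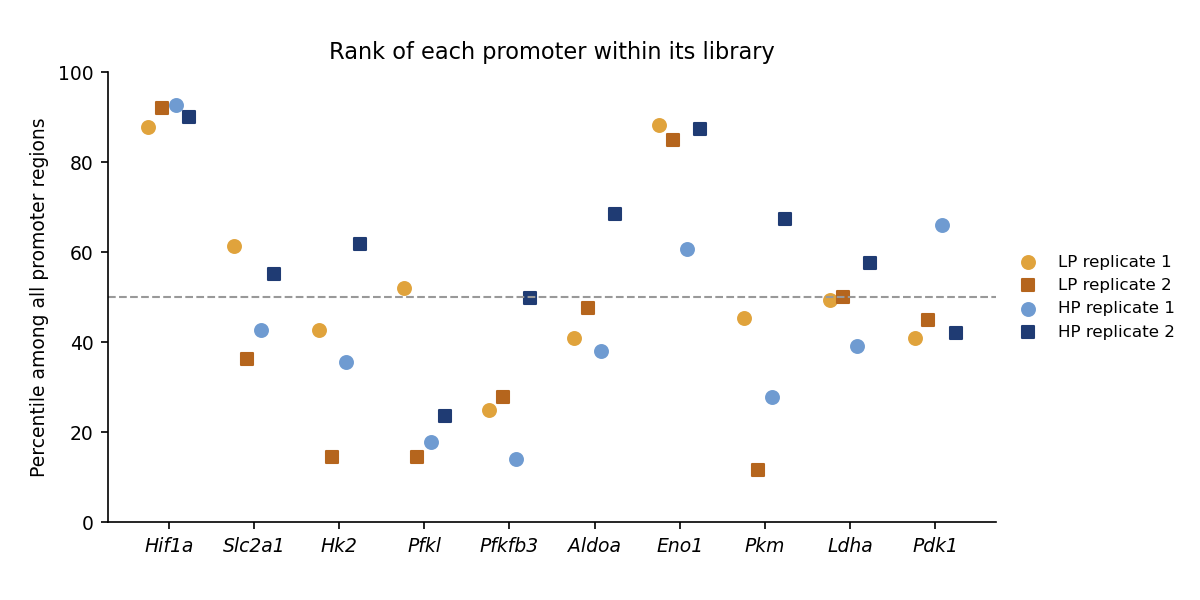
Percentile of each promoter region among all 8994 promoter regions called in all 4 libraries, by gene and library, with a dashed line at the median. Hif1a stays near the top in all 4 libraries, while Hk2 and Pkm are at 14.4 and 11.6 in LP replicate 2 and at 61.7 and 67.3 in HP replicate 2.

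Of the 99 regions at the 10 genes, 14 (14.1%) were called in all 4 libraries, against 6.6% of all regions and 9.88% of those at protein-coding genes, and 1 of those 14 passed the test, beside the 4.01% of all regions. It was a region upstream of Ldha (chr7:46837740-46839913), its midpoint at −7013 bp from the start site of the reference transcript and outside the gene as annotated. Its scaled pileups were 0.610 and 0.586 in LP against 1.48 and 2.60 in HP, which are 7 and 9 fragments in LP against 17 and 37 in HP. The groups were well separated, and the region rose by a log2 ratio of 1.71 (95% interval 0.65 to 2.78, adjusted p = 0.0483 by limma), with 1.28 in replicate 1 and 2.15 in replicate 2. With the replicate number as a block the adjusted p was 0.0614 and the call was lost, while the share of all regions called fell from 4.01% to 0.728%. After centring, its log2 ratio was 0.70 with an adjusted p of 1. Of the single libraries, leaving out LP replicate 1, LP replicate 2 or HP replicate 2 also ended the call (adjusted p 0.425, 0.336 and 0.233), and without HP replicate 1 it was 0.00116 with 6930 regions called in place of 485.

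The region upstream of Ldha joins peaks with different summits. Its peak in LP replicate 1 ran from −7613 to −7247 bp and that in LP replicate 2 from −6587 to −6162 bp, so they shared no base. LP replicate 2 had no peak at the HP summits, and the ratio thus compares partly different places. The summit of LP replicate 2 was at −6188 bp from the start site, and those of LP replicate 1, HP replicate 1 and HP replicate 2 were at −7402, −7753 and −7647 bp, just outside the 3 kb flank that the region overlaps. The 300 bases around the HP replicate 2 summit are shown to set them beside the Ldha promoter.
Ldha upstream region, chr7:46838043-46838342, plus strand of mm10: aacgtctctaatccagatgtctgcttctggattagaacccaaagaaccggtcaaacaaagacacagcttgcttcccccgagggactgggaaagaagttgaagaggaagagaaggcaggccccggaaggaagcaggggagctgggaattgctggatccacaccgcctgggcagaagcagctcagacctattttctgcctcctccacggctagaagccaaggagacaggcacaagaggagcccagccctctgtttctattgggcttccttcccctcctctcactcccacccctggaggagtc
This stretch held no ACGTG and no GCGTG on either strand, and so no E-box of the kind above. Either core occurred in 58.4% of such stretches around the HP replicate 2 summits of 12080 regions called in all 4 libraries. No match says only that these letters are absent from this window.

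Away from the start sites of the 10 genes themselves, 3 regions in their bodies or flanks were called in all 4 libraries, those at Slc2a1, Aldoa and Ldha described above, with a median log2 ratio of 1.02. The Aldoa one lies at a promoter of another gene, Ppp4c, so it has its counterpart in the promoter regions (median 0.89), and those at Slc2a1 (1.02) and Ldha (1.71) in the regions away from promoters (median 1.05). A further 7 regions were called in 3 libraries, and all of them had a peak in both HP libraries, against 95.5% of all regions called in 3. They lay at Hk2, Pfkfb3, Eno1 and Pkm. Another 19 regions were called in 2 libraries and 59 (59.6%) in 1, against 81.7% of all regions and 76.1% of those at protein-coding genes called in 1. These included 26 called in HP replicate 2 alone, of which 11 were at Pkm. A further 9, 13 and 11 were called in LP replicate 1, LP replicate 2 and HP replicate 1 alone. The like shares over all regions were not computed for each library, so these counts cannot be read as particular to these genes.

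Both HP libraries and neither LP library had a peak in 10 of the 99 regions (10.1%, 95% Wilson interval 5.58 to 17.6), against 3.94% of all regions and 4.61% of the regions at protein-coding genes. None had the reverse pattern, against 0.249% of all regions. Wilson intervals cover counting error only, and neighbouring regions of 1 gene are not independent, so the interval is no test against the other shares. Those shares also take in genes without a promoter region called in all 4 libraries, unlike the genes here. None of the 10 regions was at a promoter. Eno1 held 4 of them, Pkm 3, and Slc2a1, Pfkfb3 and Pdk1 1 each, so that 7 were at 2 genes. They were low peaks, with 6 to 19 fragments at the summit in HP replicate 1 and 9 to 38 in HP replicate 2.

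At Eno1 the HP regions were spread along the last exons of the gene, over exon 8, exons 9 to 10 and exon 12, and 1 lay past the gene end. The region over exons 9 to 10 (chr4:150247274-150247905) had scaled pileups of 1.13 and 2.24 in HP, and the downstream one (chr4:150250459-150251341) had 1.13 and 2.03. Eno1 has a near-identical copy without introns elsewhere in the mouse genome, so fragments on its exons may be shared with it, which was not tested. At Pkm, 1 lay upstream of the gene (chr9:59653600-59654377), with 1.65 and 1.54 in HP, and the others in introns 1 and 8. The region downstream of Pdk1 (chr2:71904088-71904700) had 1.04 and 2.67 in HP, and those in Slc2a1 intron 1 and between both Pfkfb3 promoters stayed under 1 in both HP libraries.

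**Figure D4:**
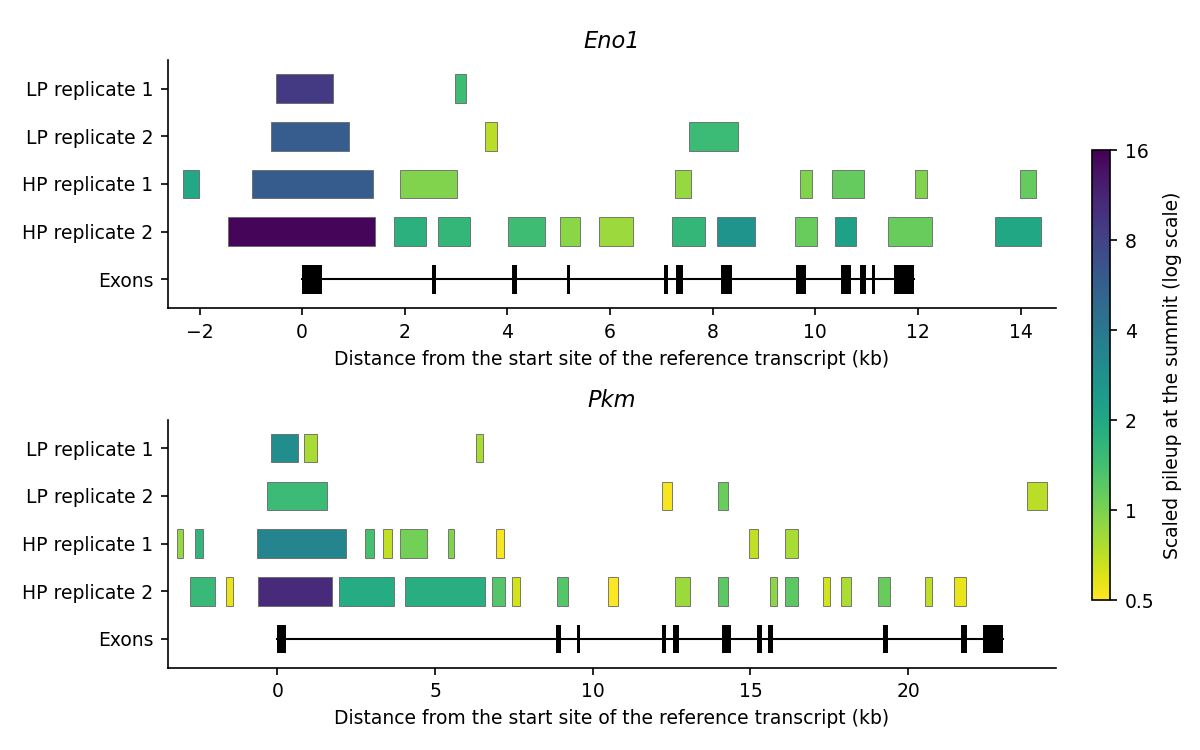
H3K27ac peaks at Eno1 and Pkm in each library as boxes along the distance from the start site of the reference transcript (kb), coloured by the scaled pileup at the summit (log scale), with exons as black boxes. The LP libraries have a promoter peak and 1 to 3 others at each gene, and HP replicate 2 has peaks along most of both genes.

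Counted as length, peaks covered 1326 and 2718 bp of the Eno1 window in LP against 5487 and 9860 bp in HP, and 1501 and 3195 bp of the Pkm window in LP against 5672 and 11912 bp in HP. Eno1 had 2 and 3 peaks in LP against 8 and 12 in HP, and Pkm had 3 and 4 in LP against 10 and 18 in HP. The ratio of the group means was 3.80 at Eno1 and 3.74 at Pkm, and it was high in each replicate, 4.14 and 3.63 at Eno1 and 3.78 and 3.73 at Pkm. Across the 12111 protein-coding genes with a peak in every library the median ratio was 1.58, and 2.08% of them had a ratio as high as that of Eno1 and 2.27% one as high as that of Pkm. This measure was added after the peaks of both genes had been seen, moves with how much was called in a library, and was not tested.

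**Figure D5:**
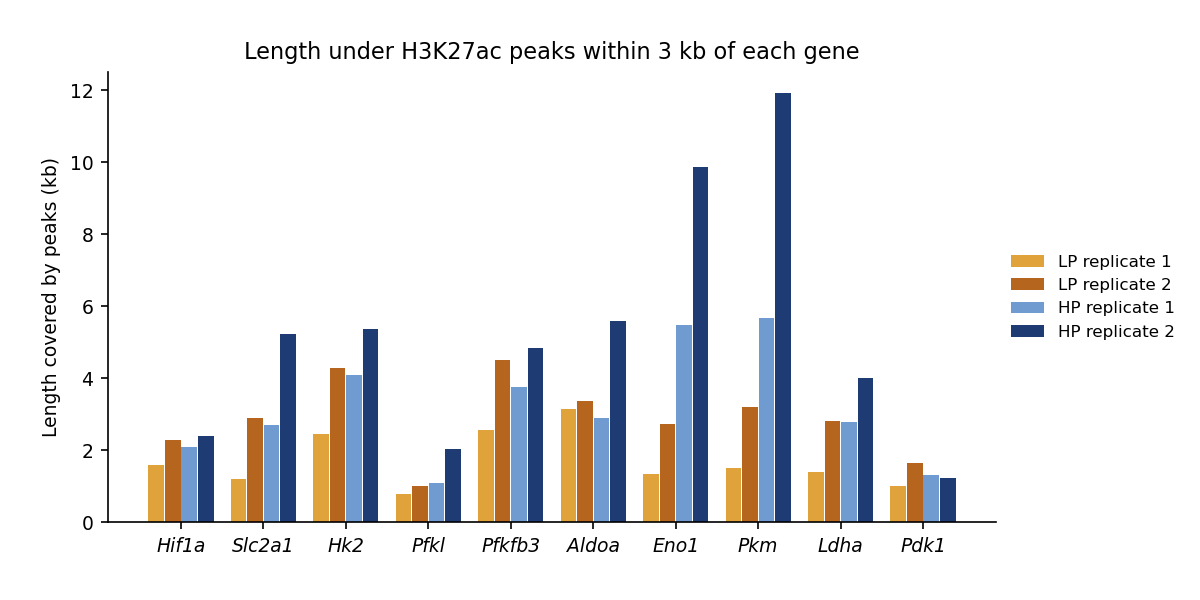
Length covered by H3K27ac peaks (kb) within 3 kb of each gene in the 4 libraries, 1 bar per library. Eno1 and Pkm stand out, with 5487 and 5672 bp in HP replicate 1 and 9860 and 11912 bp in HP replicate 2, and Pdk1 has about as much in LP as in HP.

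At the other 8 genes the ratio of covered length was between 0.955 and 1.94. Both HP values were above both LP values at 3 of the 10 genes, Pfkl, Eno1 and Pkm, against 50.7% of the protein-coding genes with a peak in every library. The median ratio of the 10 was 1.51, with 0.955 at Pdk1 and 1.16 at Hif1a as the lowest. Over all 10 genes there were 31 and 47 peaks in LP against 53 and 68 in HP, covering 16920 and 28681 bp in LP against 31851 and 52411 bp in HP. The whole lists held 57942 and 66580 peaks in LP against 64759 and 71529 in HP. Of the replicate 1 peaks, 16 of 31 in LP against 40 of 53 in HP overlapped a replicate 2 peak of the same population. These were 9 and 16 where the overlap had to reach 50% of both peaks. The like share over all peaks was not computed, so the overlap cannot be read as particular to these genes.

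Further genes of the pathway were read from a list of 48. Of these, 38 had a promoter region called in all 4 libraries, 8 in 1 to 3 libraries, and Pklr, the liver and red cell pyruvate kinase, and Pdk4, another pyruvate dehydrogenase kinase, in none. The like shares over all genes were not computed. Both HP values lay above both LP values at 32 of the 38 (84.2%), against 73.9% of all promoter regions, and their median log2 ratio was 0.93 (−0.08 after centring). By role, the medians were 0.93 for 6 genes of hypoxia signalling, 0.63 for 3 carriers of glucose and lactate and 0.94 for 11 glycolytic enzymes. They were 0.91 for 5 genes of the entry or use of pyruvate in mitochondria and 0.98 for 13 other HIF-1 targets. All promoter regions had a median of 0.89, and no difference from it was tested.

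Of 50 regions of the list called in all 4 libraries, 2 rose by the test, beside 4.01% of all regions, and 0 fell. The promoter region of Gapdh, the glycolytic dehydrogenase, had scaled pileups of 2.27 and 2.67 in LP against 5.83 and 12.2 in HP, separated in both replicates, with a log2 ratio of 1.78 (adjusted p = 0.0461 by limma, and 0.0597 with the replicate block). A region 73 bp past the end of Adm, which encodes the secreted peptide adrenomedullin, had 0.785 and 1.43 in LP against 3.05 and 7.02 in HP, with a log2 ratio of 2.12 (adjusted p = 0.0331, and 0.0468 with the block). Neither call held after centring, or without LP replicate 1, LP replicate 2 or HP replicate 2. The next promoters were those of Pdk3 (1.59, adjusted p = 0.0575) and Ankrd37 (1.58, adjusted p = 0.0583), and the lowest log2 ratios were those of Pdk2 (−0.04), Higd1a (0.46) and Slc16a1 (0.56). Both HP libraries and neither LP library had a peak in 24 of 291 regions (8.25%), at 17 genes, against 3.94% of all regions and 4.61% of those at protein-coding genes. The reverse pattern, both LP and neither HP library, was found in 0, against 0.249% of all regions.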

How the data were processed

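H3K27ac ChIP-seq of sorted LP and HP cells was analysed, with 2 replicates of each and groups taken from the labels. The authors trimmed reads (Trimmomatic 0.33), aligned them to mm10 (Bowtie2 2.5.1) and ran MACS 3.0.0b1 on each library for narrow peaks (q-value cutoff 0.05), with the like-numbered IgG library as control. The deposited pileup signal is the number of fragments over the summit, not scaled for depth. The deposited fold enrichment ratios and −log10 q-values served only to describe or filter peaks.

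Pileups were divided by the fragments of the library, per 1000000. Lists were merged into regions at an overlap of 1 bp, and a region took its highest summit pileup in a library. limma 3.58.1 (R 4.3.3) compared log2 scaled pileups of LP and HP over the 12084 regions called in all 4 libraries, with Benjamini-Hochberg adjustment. An exact permutation test of 2 against 2 cannot go below a two-sided p of 0.333, so counts have no p-value. Libraries of the same number were taken as 1 replicate set because, per the labels, equal DNA was used within each set and each had its own IgG library. The main limma fit had no replicate term and so treated the libraries as unpaired. The replicate differences of LP and HP correlated at 0.0153 over regions, and the fit with the replicate number as a block was an alternative. The script was tested on simulated regions.

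Genes and start sites came from GENCODE M21 (GRCm38). Of 2 genes named Aldoa, the one at the RefSeq position was used. A gene's promoter region was that within 1 kb of a protein-coding start site called in most libraries, then with the highest mean pileup. All 10 genes were named. Genes of the pathway list were named where a region passed the test, where they were among the 3 highest or 3 lowest promoter ratios, or where no promoter peak was called. The members and lists were chosen with earlier results of these data known. Alternatives were the replicate block, other scalings, mean summit pileups, quantile normalization, q-values of at most 0.01 and 0.001, leaving out libraries, other windows and start sites, and an overlap of 50%. Read counts in regions were not used here. Python 3.11.15 and pandas 2.3.3 were used.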

Additional observations from a re-analysis of the deposited data

How the results depend on the processing

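Scaling decided most values. With each library centred on its median, with or without the replicate block (the combination was chosen after seeing the data), 0 regions were called in all, at the 10 genes and at the pathway list. The median log2 ratio then turned to −0.01 at the 10 promoters and became 0.01 in bodies and flanks. Centred ratios turned negative at Hif1a (−0.19), Slc2a1 (−0.11), Pfkl (−0.38), Eno1 (−0.62) and Ldha (−0.10), and quantile normalization turned those of Slc2a1 (−0.01), Pfkl (−0.36), Eno1 (−0.37) and Ldha (−0.05), with 0 regions called, and moved the body median to 0.05. The replicate block, which pairs libraries by number, lowered the calls from 485 to 88, from 1 to 0 at the 10 genes and from 2 to 1 at the pathway list, and changed no other call. Scaling to fragments times fragment length left 9 calls in all and 0 in both lists. Mean summit pileups left 0, and moved the body median to 1.09, Aldoa from 1.18 to 1.89 and Hif1a from 0.82 to 0.49. With q-values of at most 0.01 the region upstream of Ldha was lost (0 calls at the 10 genes, adjusted p 0.0504), and with at most 0.001 there were 33 calls, 0 at the 10 genes and 1 at the pathway list, with a body median of 0.96.

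Leaving out 1 library gave 0 to 6930 calls in all, 0 to 9 at the 10 genes and 0 to 27 at the pathway list. The highest counts came without HP replicate 1, where the promoters of Slc2a1, Hk2, Pfkfb3, Aldoa, Pkm, Ldha and Pdk1 passed the test, and 0 regions were called without any other library. In these fits the lone library is assumed to vary like the others. Leaving out libraries or a replicate number gave median log2 ratios of 0.32 to 1.69 at the promoters and 0.77 to 1.42 in bodies and flanks. Eno1 was at −0.29 without HP replicate 2, and went from −0.60 without replicate 2 to 1.39 without replicate 1. Pfkl went from −0.38 to 1.63. No limma count could be had without a replicate number, which leaves 1 library a group. Single lists gave 28 to 39 HP regions, 10 to 15 LP regions, and 31 to 47 LP and 53 to 68 HP peaks in place of peaks common to the replicates. A window of 10 kb added 1 LP region and gave 11 HP regions in place of 10, and with no flank there were 7 HP regions. Common peaks were 19 in LP and 48 in HP with 10 kb, and 14 and 31 with no flank, in place of 16 and 40. An overlap of 50% of both peaks left 9 common peaks in LP and 16 in HP. Heights of 7 to 37 fragments, as upstream of Ldha, limit precision.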
